A study of Mus musculus with 4 samples.

Results

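The Cyp4 fatty acid hydroxylases described here are 5 mouse genes, Cyp4a10, Cyp4a12a, Cyp4a12b, Cyp4a14 and Cyp4b1, out of 21456 genes with a usable name in a single-nucleus RNA sequencing study of kidney cortex. They were selected on their levels across clusters and genotypes in the table of cluster averages, with earlier results of these data known, so the levels and ratios below are a description. There was 1 library per genotype: Sco2KO/KI;db/db, called the double mutant below, Sco2KO/KI, db/db, and wild type (WT), all labelled C57BL/6J. Sco2 is a copper chaperone of mitochondria that serves cytochrome c oxidase, and in KO/KI mice a knockout allele is combined with a knock-in allele. The db allele of Lepr leaves the leptin receptor unable to signal, and db/db mice become obese and diabetic. The sources used here give neither age nor sex, nor whether a library held 1 mouse or several. With 1 library per genotype no difference between genotypes could be tested, and every comparison below sets single libraries side by side.

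Cyp4 enzymes are cytochrome P450 proteins of the endoplasmic reticulum that add a hydroxyl group to the terminal, or omega, carbon of fatty acids. In the kidney the proximal tubule is their main site, and some Cyp4a enzymes turn arachidonic acid into 20-HETE, a lipid that acts on vessel tone and salt transport. In mice Cyp4a10 and Cyp4a14 are textbook targets of the fatty acid receptor PPARα, whereas Cyp4a12a is induced by androgens and is the main renal 20-HETE synthase of male mice. Cyp4b1 acts on medium-chain fatty acids and on foreign compounds, and its kidney transcript is also androgen-dependent in mice.

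All 5 genes lie together on chromosome 4 (GRCm38, annotation GENCODE vM21), in 348.7 kb between 115299046 and 115647723. In order along the plus strand they are Cyp4a12a (115299046 to 115332815, plus strand), Cyp4a12b (115411624 to 115439034, plus strand), Cyp4a14 (115486200 to 115496142, minus strand), Cyp4a10 (115518264 to 115533649, plus strand) and Cyp4b1 (115624725 to 115647723, minus strand). Cyp4a31 and Cyp4a32, which are no members, lie between Cyp4a10 and Cyp4b1. The cluster starts 13.48 Mb beyond the end of Lepr on the same chromosome.

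Some members are near copies of each other, and their sequences are shown because they set how far the counts of the copies can be trusted. The coding sequences of Cyp4a12a and Cyp4a12b were 98.5% identical, with 23 differences in 1527 aligned bases, and their 3′ untranslated regions were 97.1% identical. Cyp4a10 was 96.6% identical to Cyp4a31 and 97.2% identical to Cyp4a32 in its coding sequence. The 3′ untranslated regions of Cyp4a10 and Cyp4a31, of 521 and 911 bases, were 53.2% identical with gaps counted as differences. The unequal lengths alone hold this value down, so it does not show how alike the shared part is. Cyp4a14 was 75.2% identical to Cyp4a10, and Cyp4b1 was between 58.8% and 60.7% identical to the other 4 members. The 60-base coding stretches with the most differences are printed 5′ to 3′ from the GENCODE transcripts, with the bases that differ within each pair in capitals. The Cyp4a12 pair shows coding bases 624 to 683, which run over an intron at chr4:115326309-115326681 in Cyp4a12a and chr4:115432561-115432934 in Cyp4a12b. The other pair shows coding bases 106 to 165, in exon 1, at chr4:115518427-115518486 in Cyp4a10 and chr4:115563822-115563881 in Cyp4a31. All 4 are on the plus strand of GRCm38.
Cyp4a12a: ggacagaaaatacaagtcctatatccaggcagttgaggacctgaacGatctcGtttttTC
Cyp4a12b: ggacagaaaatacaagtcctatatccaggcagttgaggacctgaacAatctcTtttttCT
Cyp4a10: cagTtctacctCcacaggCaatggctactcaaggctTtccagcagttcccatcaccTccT
Cyp4a31: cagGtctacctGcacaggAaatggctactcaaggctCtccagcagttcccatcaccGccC
Even in its most divergent stretch the Cyp4a12 pair differed at only 4 of 60 bases. The assignment of reads that fit more than 1 copy is not described in the sources, so the split between Cyp4a12a and Cyp4a12b, and that between Cyp4a10, Cyp4a31 and Cyp4a32, is uncertain.

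Of the promoters, that of Cyp4b1 alone had an entry in the table of RefSeq start sites used here (GRCm38.p6). It is printed because Cyp4b1 had the highest level of the 5 members and one of the lowest ratios in db/db. The 300 bases span chr4:115647672-115647971 and are given on the minus strand, the strand of the gene, from 250 bases before the start to 50 after it.
Cyp4b1 promoter: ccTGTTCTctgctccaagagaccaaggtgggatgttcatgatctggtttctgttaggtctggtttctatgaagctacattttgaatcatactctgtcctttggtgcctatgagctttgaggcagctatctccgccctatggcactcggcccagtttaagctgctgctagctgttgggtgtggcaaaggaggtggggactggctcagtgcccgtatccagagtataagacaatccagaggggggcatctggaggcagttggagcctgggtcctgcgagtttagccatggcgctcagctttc
The capitals mark the only match to AGAACA, a hexamer bound by steroid hormone receptors, which reads on the opposite strand from base 3. Both strands were searched, and 19% of 32851 promoters of the same length hold this motif. The nuclear receptor hexamer AGGTCA, found in 16.3% of promoters, had 0 matches, and its direct repeat with 1 base between, found in 0.0396%, also had 0. These are matches of letters and not bound sites.

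Levels are the authors' normalised values, the mean UMIs per 10000 over the nuclei of a cluster, with unspliced transcripts included per the name of the deposited table. The libraries held 5279 nuclei in Sco2KO/KI;db/db, 1181 in Sco2KO/KI, 4578 in db/db, against 5157 in WT, as recovered from the values. Estimated UMIs per proximal tubule nucleus were 2209, 5613, 3024 and 3225 in these 4 libraries, so the Sco2KO/KI library was the deepest per nucleus and the smallest in nuclei. Clusters 0, 1, 2, 3 and 7 led in proximal tubule markers and form the proximal tubule-like class, with 3015 nuclei in Sco2KO/KI;db/db, 706 in Sco2KO/KI, 2003 in db/db, against 2447 in WT. The 8 proximal tubule markers summed to 157.2, 150.4, 135.3 and 146.9 in the class, in that order of genotypes. Cluster 7, which carried 4 of 4 markers of the straight segment (S3), held only 30 nuclei in Sco2KO/KI;db/db, against 441 in WT. Markers of podocytes, endothelium, stroma, leukocytes and intercalated cells each summed to under 1 in the class mean of every library, while those of the thick ascending limb summed to 5.06 to 8.62. Connecting tubule markers summed to 8.84 in the double mutant, 2.27 in Sco2KO/KI, 4.36 in db/db, against 5.11 in WT, and their part in the results was not tested. Sco2 itself was too sparse to check the labels, at an estimated 36, 11, 13 and 60 UMIs over all nuclei of the double mutant, Sco2KO/KI, db/db and WT. Lepr had 27, 37, 56 and 59, and a count of reads along the gene does not show the db mutation.

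The plain picture in the proximal tubule-like class was a split of the family. Cyp4a14 and Cyp4a10 were higher in both libraries that carry db/db, and Cyp4a14 was highest when both mutations were present. Cyp4a10 was also higher in Sco2KO/KI than in WT. Weighted by nuclei, Cyp4a10 had 1.23 in the double mutant, 0.968 in Sco2KO/KI, 1.39 in db/db, against 0.377 in WT. Cyp4a12a, counted alone, was high in Sco2KO/KI and low in both db/db libraries. With its near copy Cyp4a12b added, the level was 0.317 in the double mutant and 0.501 in db/db, against 0.598 in WT. Cyp4b1, the member with the highest level, was low in db/db and stood between db/db and WT in the double mutant. Cyp4a12b stayed under 0.5 in all 4 libraries.

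**Figure D1:**
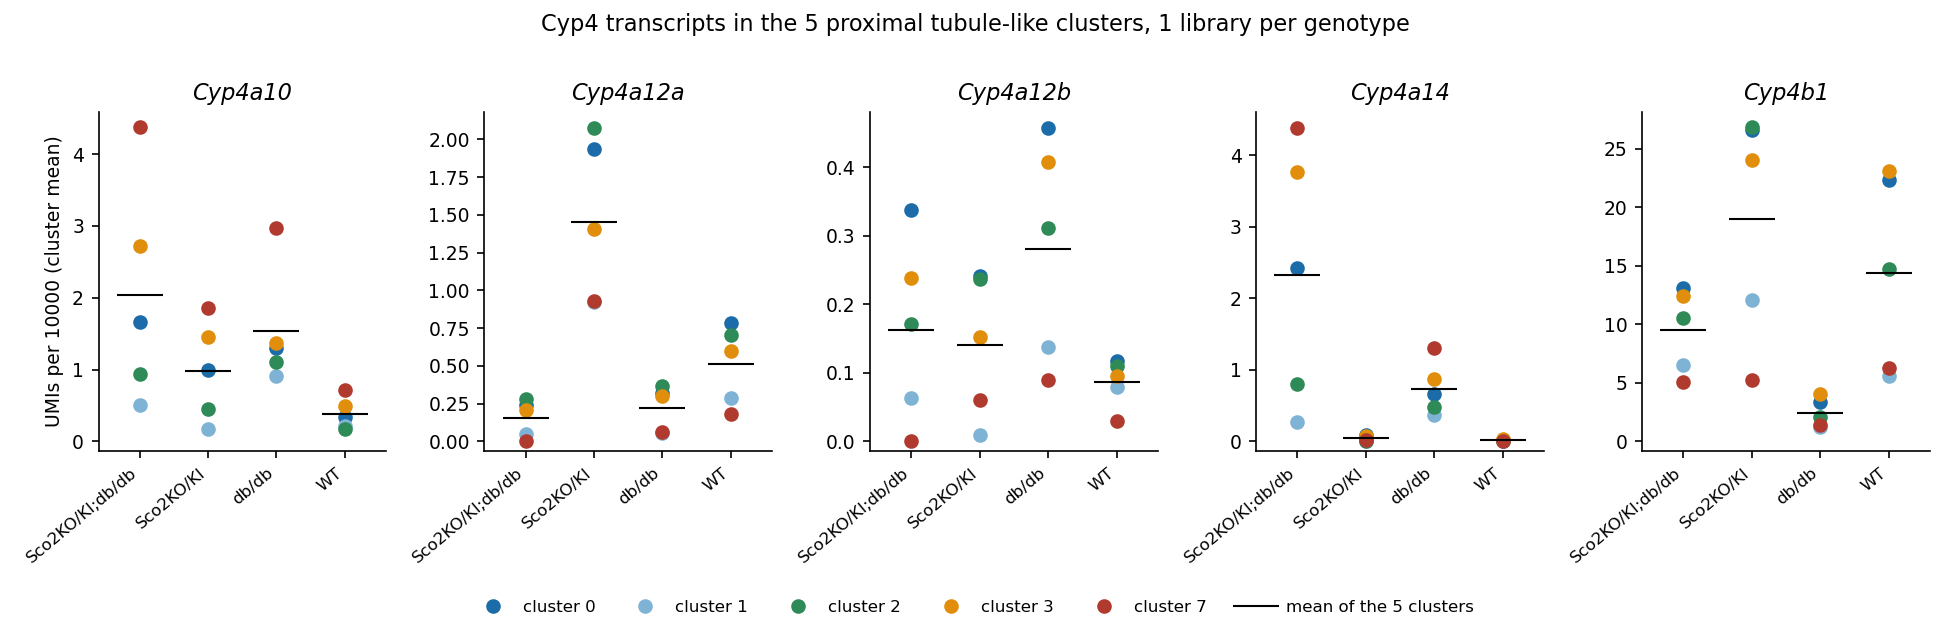
Level of each Cyp4 gene (mean UMIs per 10000) in the 5 proximal tubule-like clusters (coloured points) and their mean (bar), by genotype; each genotype is 1 library and each panel has its own axis. Cyp4a14 is near 0 in Sco2KO/KI and WT and reaches 4.38 in cluster 7 of Sco2KO/KI;db/db, which held 30 nuclei. Cyp4b1 is lowest in db/db, with a mean of 2.41 against 14.4 in WT.

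Cyp4a14, an omega-hydroxylase and PPARα target, averaged 2.33 UMIs per 10000 in the double mutant, 0.0400 in Sco2KO/KI, 0.737 in db/db, against 0.0129 in WT over the 5 clusters. These levels correspond to an estimated 963, 17, 426 and 10 UMIs in the class, so the 2 low libraries rest on few molecules. Over the 5 clusters the levels ran from 0.362 to 1.31 in db/db and from 0 to 0.0322 in WT. The ratio of these unweighted class means was 57 for db/db over WT and 58.2 for the double mutant over Sco2KO/KI. Weighted by nuclei, the levels were 1.44 in the double mutant, 0.0443 in Sco2KO/KI, 0.674 in db/db, against 0.0127 in WT. On a log2(value + 0.1) scale, where low genes look less changed than they are, the mean cluster ratios were 2.79 and 3.65 for these comparisons. Cyp4a14 ranked second of 4045 genes from the top in db/db against WT and first of 4001 in the double mutant against Sco2KO/KI.

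Within the tubule Cyp4a14 was steeply graded. In Sco2KO/KI;db/db its level was 4.38 in cluster 7, 3.76 in cluster 3, 2.42 in cluster 0, 0.805 in cluster 2 and 0.266 in cluster 1, which carries markers of the early segments S1 and S2. In db/db the same clusters had 1.31, 0.877, 0.660, 0.478 and 0.362. The order of clusters was the same in both libraries, but the ratio of cluster 7 to cluster 1 was 16.4 in the double mutant and 3.62 in db/db. In the double mutant cluster 7 rests on only 30 nuclei, and cluster 1 on 1005. The log2 ratio of the double mutant over db/db was 1.98 in cluster 3, 1.73 in cluster 0, 1.67 in cluster 7, 0.65 in cluster 2 and -0.34 in cluster 1, with a mean of 1.14. The higher level of the double mutant was not seen in cluster 1, and the mean was under 1 without cluster 3 (0.93), without cluster 0 (0.99) or with clusters weighted by nuclei (0.90).

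Cyp4a10, the other PPARα-responsive member, averaged 2.04 in the double mutant, 0.986 in Sco2KO/KI, 1.53 in db/db, against 0.386 in WT. Its levels ran from 0.509 to 4.37 in the double mutant, 0.165 to 1.86 in Sco2KO/KI, 0.916 to 2.97 in db/db and 0.166 to 0.721 in WT, and cluster 7 was the highest of the 5 in each library. The 5 clusters of a library are not replicates, so the ranges give no error. How many of all genes separate between db/db and WT in this way was not counted. The log2 ratios were 1.75 for db/db over WT and 0.97 for the double mutant over Sco2KO/KI, positive in 5 of 5 clusters each. Sco2KO/KI over WT gave 0.96, with 4 clusters between 1.05 and 1.39 and cluster 1 at -0.21, and without cluster 1 the mean was 1.25. Between Sco2KO/KI;db/db and db/db the mean ratio of 0.17 had no steady sign: it was 0.93 in cluster 3 and -0.74 in cluster 1, and -0.01 with clusters weighted by nuclei.

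The near copies of Cyp4a10 add to this. Cyp4a31 averaged 1.60 in the double mutant, 1.53 in Sco2KO/KI, 1.42 in db/db, against 0.712 in WT. It was thus similar in the 3 mutant libraries, with log2 ratios over WT of 1.04 in Sco2KO/KI and 0.97 in db/db. Cyp4a10, Cyp4a31 and Cyp4a32 together averaged 3.66 in the double mutant, 2.55 in Sco2KO/KI, 2.95 in db/db, against 1.12 in WT. Cyp4a10 made up 55.8%, 38.7%, 51.9% and 34.5% of that sum in these libraries. For the sum the log2 ratio of db/db over WT was 1.39, against 1.75 for Cyp4a10 alone.

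Cyp4a12a, the androgen-induced 20-HETE synthase, averaged 0.155 in the double mutant, 1.46 in Sco2KO/KI, 0.221 in db/db, against 0.512 in WT. The 5 clusters had 0.926 to 2.08 in Sco2KO/KI and 0.184 to 0.783 in WT. The highest values of Sco2KO/KI;db/db and db/db were 0.279 and 0.370. The log2 ratio was 1.40 for Sco2KO/KI over WT and -2.71 for the double mutant over Sco2KO/KI, with the same sign in 5 of 5 clusters in each. For db/db over WT it was -0.96, between -1.34 and -0.78 over the clusters. Sco2KO/KI;db/db and db/db were both under the floor of 0.5 used for counting, and their log2 ratio of -0.34 rests on an estimated 118 and 139 UMIs. Along the tubule Cyp4a12a was highest in clusters 0 and 2 in each library and lower in clusters 1 and 7, unlike Cyp4a10 and Cyp4a14.

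Cyp4a12b, its near copy, averaged 0.162 in the double mutant, 0.14 in Sco2KO/KI, 0.280 in db/db, against 0.0862 in WT, an estimated 117, 57, 177 and 67 UMIs. No library reached the floor, and the log2 ratios lay between -0.60, for the double mutant over db/db, and 0.93, for db/db over WT. Cyp4a12a and Cyp4a12b therefore had opposite signs in db/db against WT. Of the sum of both copies, Cyp4a12b made up 51.1% in the double mutant, 8.78% in Sco2KO/KI, 56.0% in db/db, against 14.4% in WT. The sum itself was 0.317 in the double mutant, 1.59 in Sco2KO/KI, 0.501 in db/db, against 0.598 in WT. With the copies summed, an alternative added after the data had been seen, the log2 ratio of db/db over WT was -0.28, and those of Sco2KO/KI over WT and of the double mutant over Sco2KO/KI were 1.32 and -2.24.

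Cyp4b1 averaged 9.53 in the double mutant, 18.98 in Sco2KO/KI, 2.41 in db/db, against 14.4 in WT, and it is the best sampled member, with an estimated 1479 UMIs or more in the class of each library. The clusters had 1.20 to 4.05 in db/db, 5.61 to 23.07 in WT and 5.11 to 13.12 in Sco2KO/KI;db/db. The log2 ratio was -2.44 for db/db over WT, between -2.77 and -2.09 over the clusters, and 1.99 for the double mutant over db/db, between 1.59 and 2.34. From the bottom, Cyp4b1 ranked 6 of 4045 genes in the first of these, and from the top it ranked 5 of 4057 in the second. The double mutant over Sco2KO/KI gave -0.85, with cluster 7 at -0.05 and the other 4 between -1.34 and -0.89. Without cluster 7 the mean was -1.05. Sco2KO/KI over WT gave 0.41, from 1.09 in cluster 1 to -0.24 in cluster 7.

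**Figure D2:**
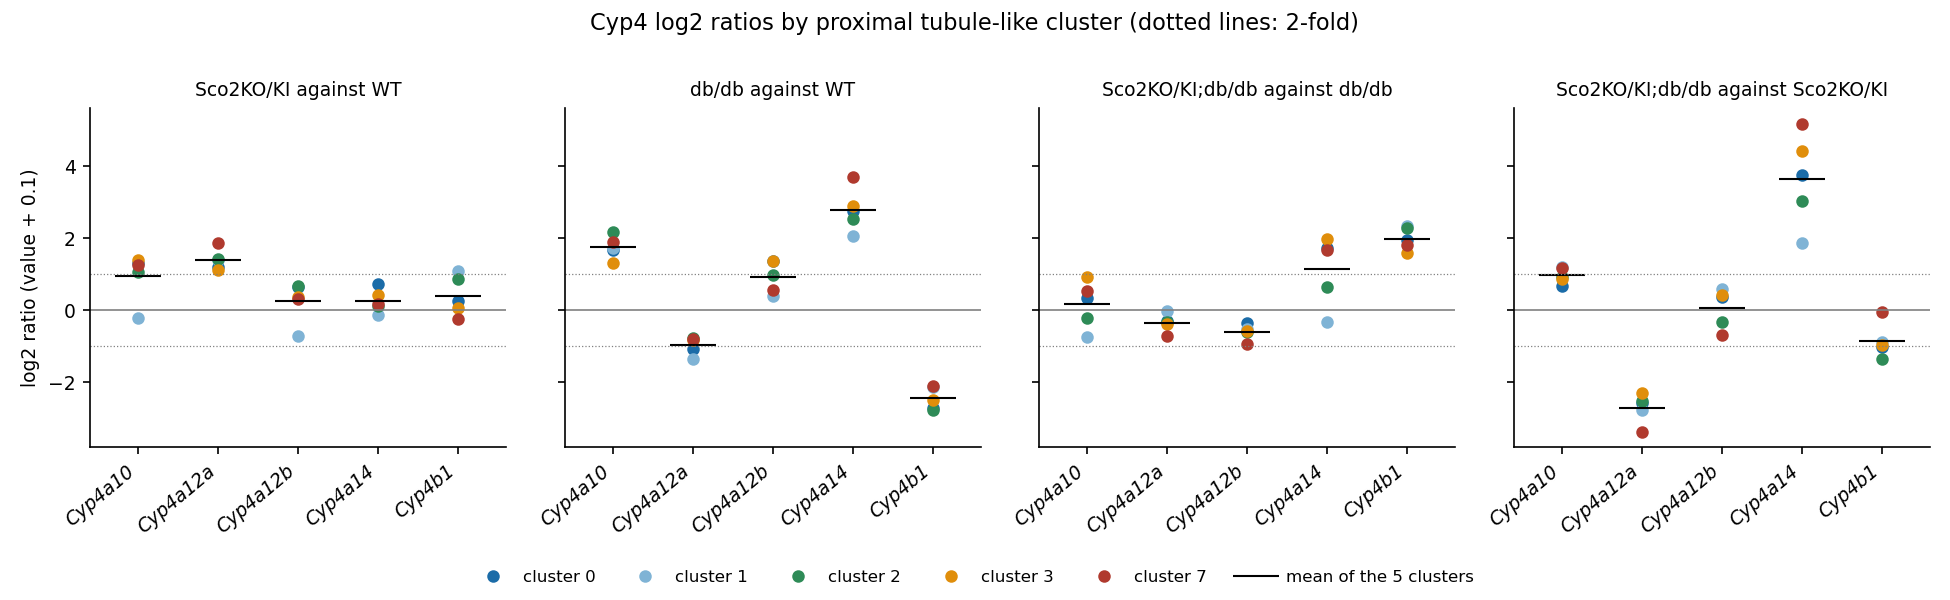
Log2 ratio of each Cyp4 gene in the 4 comparisons, computed as log2 of (value + 0.1) in the first library over that in the second; points are the 5 proximal tubule-like clusters, bars their mean, dotted lines 2-fold. In db/db against WT Cyp4a14 and Cyp4b1 lie at opposite ends, at 2.79 and -2.44, and for Sco2KO/KI;db/db over db/db both are positive, at 1.14 and 1.99.

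Against all genes above the floor, calling a log2 ratio of 1 or more higher and of -1 or less lower, between 1 and 3 members were called in each comparison. In Sco2KO/KI against WT 3 of 5 members passed the floor and 1, Cyp4a12a, was higher, where 0.889% of 3939 genes were higher and 1.32% lower. In db/db against WT 4 members passed, with Cyp4a14 and Cyp4a10 higher and Cyp4b1 lower, against a background of 1.8% higher and 3.46% lower. In the double mutant against db/db 3 passed, and Cyp4b1 and Cyp4a14 were higher, against a background of 2.74% higher and 1.18% lower. In the double mutant against Sco2KO/KI 4 passed, with Cyp4a14 higher and Cyp4a12a lower, against 2.4% higher and 2.3% lower. Since the members were chosen with these ratios known, nothing is read from the counts. Each library enters 2 comparisons, so the 4 sets of ratios are not independent of each other.

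The Sco2 ratio, set in the db/db background beside the lean one, differed between members. For Cyp4b1 the log2 ratio was 1.99 with db/db and 0.41 without, a difference of 1.59 that was positive in 5 of 5 clusters. For Cyp4a14 it was 1.14 and 0.27, a difference of 0.87 that was positive in 4 of 5. Cyp4a10 had 0.17 and 0.96, a difference of -0.79, and Cyp4a12a had -0.34 and 1.40, a difference of -1.75, both negative in 5 of 5 clusters. The family thus showed no common Sco2 ratio, and none of these differences could be tested.

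Levels were also set against each other between genes per length, a choice that takes UMIs to grow with gene span, which was not checked. Per 10 kb of gene span, since introns were counted, Cyp4b1 led in every library, at 4.14 in the double mutant, 8.24 in Sco2KO/KI, 1.05 in db/db, against 6.26 in WT. Cyp4a14 came next in Sco2KO/KI;db/db, at 2.34, and was the lowest in WT, at 0.0130. In db/db Cyp4a10, at 0.997, was close to Cyp4b1, and without replicates that order has no error. Without division by length they had 1.53 and 2.41 there.

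Outside the proximal tubule-like class Cyp4b1 and Cyp4a10 were above 0 in every other named cluster of at least 20 nuclei, while Cyp4a14 was at 0 in 4 of 4 such clusters of Sco2KO/KI and 6 of 9 of WT, and Cyp4a12a in 4 of 9 of the double mutant and 4 of 10 of db/db. The mean over the other named clusters with at least 20 nuclei, as a percent of the class mean, was 18.1% in the double mutant, 21% in Sco2KO/KI, 23.4% in db/db, against 25.1% in WT for Cyp4b1. The 8 proximal tubule markers, which those cells should lack, had medians of 18.1%, 18.3%, 15.2% and 21.9% in these libraries, and single markers ran from 8.81% to 41.2%. Cyp4b1 outside the tubule was thus within the range of the tubule markers in 3 of the 4 libraries, and in db/db it lay just above their highest value of 21.2%. Whether these nuclei express Cyp4b1 cannot be read from such levels.

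For Cyp4a10 the percent outside was 33.6% in the double mutant, 45.5% in Sco2KO/KI, 41.5% in db/db, against 61.5% in WT, and for Cyp4a12a it was 64.6%, 55.5%, 33.9% and 71.1%. All 8 values lay above the highest marker of their library, but all were smaller without their highest cluster. For Cyp4a12a the value was 30.6% in the double mutant without the type B intercalated cell-like cluster 11 and 46.2% in Sco2KO/KI without the endothelium-like cluster 9. It was 20.2% in db/db without the leukocyte-like cluster 19 and 47.3% in WT without the urothelium-like cluster 18. This alternative was added after the data had been seen. Cluster 11 of the double mutant had 0.522 and cluster 18 of WT had 1.34, both above every proximal tubule-like cluster of their library. For Cyp4a10 the values without the highest cluster were 25.1% in the double mutant, 33.8% in Sco2KO/KI, 37.8% in db/db, against 46.8% in WT. With that cluster left out, Cyp4a12a in db/db and Cyp4a10 in Sco2KO/KI fell under the highest marker of their library, at 21.2% and 41.2%. The other values stayed above it, with no cluster left out for the markers. Kap, a transcript that androgens keep abundant in these cells, had 38.1%, 108%, 64.3% and 68.4%. Free or carried-over RNA was not measured separately, so its part in the Cyp4 levels outside the tubule was not tested. Cyp4a14 in Sco2KO/KI had only an estimated 17 UMIs in the tubule to set beside its 0 elsewhere.

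**Figure D3:**
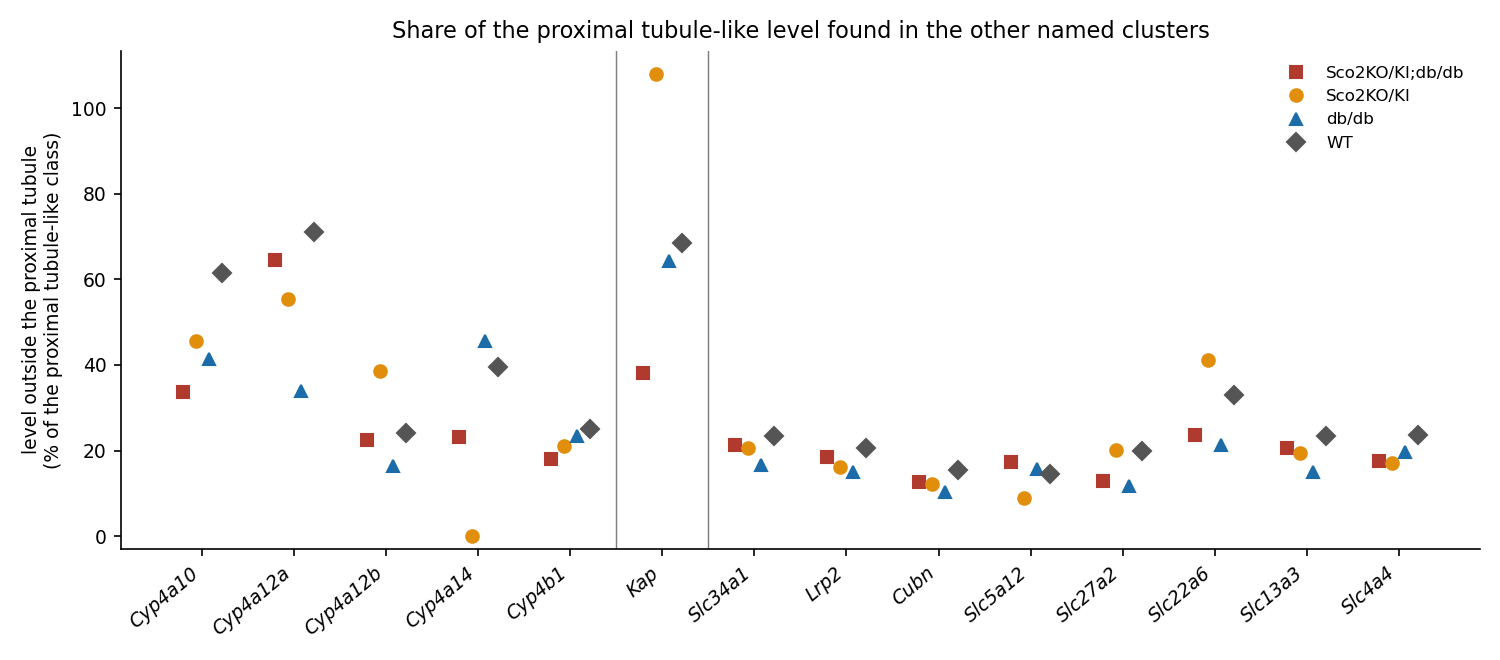
Mean level in the other named clusters with at least 20 nuclei, as a percent of the proximal tubule-like mean, for the 5 Cyp4 genes, for Kap and for 8 proximal tubule markers; each symbol is 1 library. Cyp4b1 lies at 18.1% to 25.1%, and Cyp4a12a reaches 71.1% in WT, which is 47.3% without the urothelium-like cluster 18.

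The ratios outside the tubule had the same signs for the strongest members. Cyp4b1 was lower in db/db than in WT in 9 of 9 other named clusters, with a median log2 ratio of -2.58, close to the -2.44 of the tubule itself. Cyp4a14 was higher in db/db than in WT in 9 of 9, with a median of 1.85. Cluster 4, of thick ascending limb type, held less: Cyp4b1 had 0.538 in db/db and 2.71 in WT there, and in the endothelium-like cluster 9 it had 1.33 in db/db and 5.48 in WT. Kap, in that cluster 9, stood at 5.82 in db/db and 48.0 in WT. The unnamed clusters 6, 10 and 14, which carried markers of more than 1 class, had Cyp4b1 at 1.20, 1.27 and 1.20 in db/db, against 9.18, 11.2 and 10.1 in WT.

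**Figure D4:**
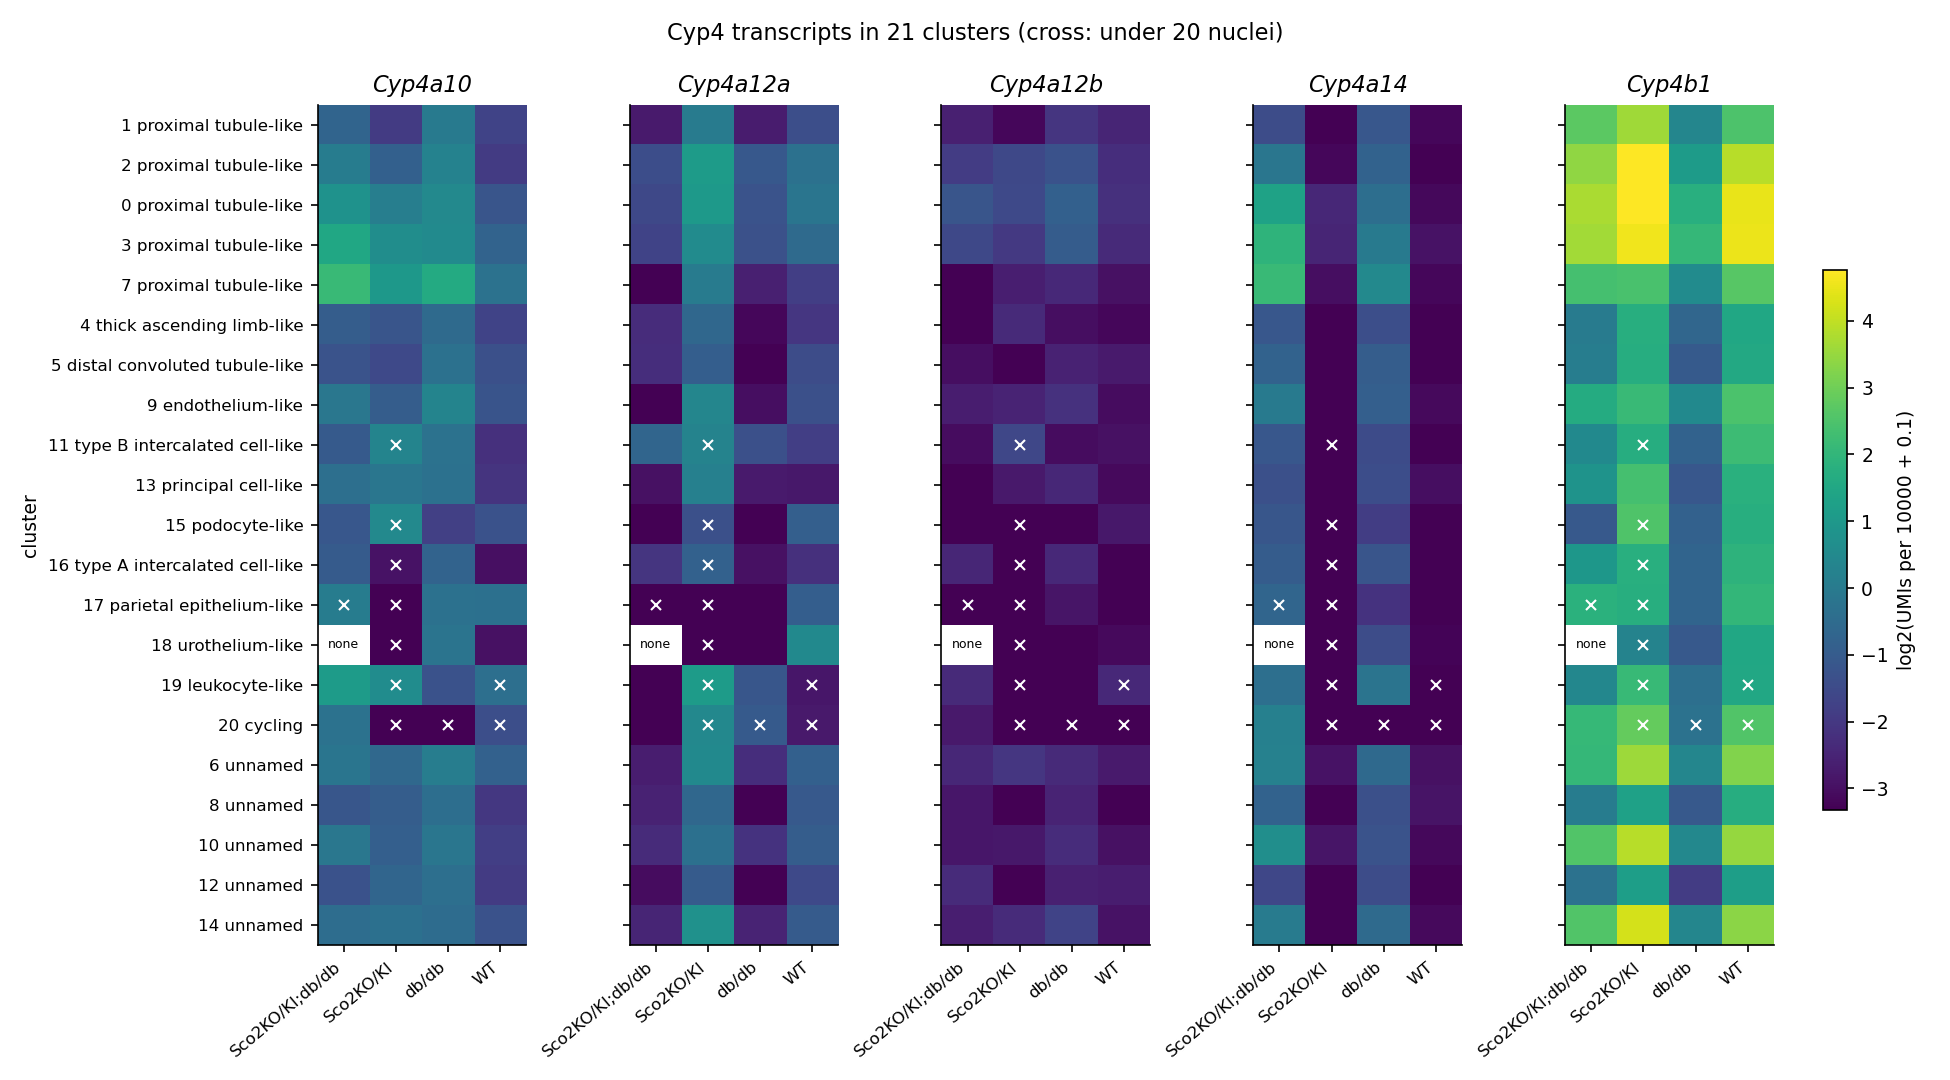
Level of each Cyp4 gene in the 21 clusters by genotype, as log2(UMIs per 10000 + 0.1) on 1 colour scale; white crosses mark columns under 20 nuclei and "none" marks a cluster with no column. The 5 proximal tubule-like rows at the top hold the highest Cyp4b1 levels, up to 26.8 in cluster 2 of Sco2KO/KI, and the highest Cyp4a14 level, 4.38 in cluster 7 of Sco2KO/KI;db/db.

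The genes whose level followed each member most closely were read over 72 columns of at least 20 nuclei, as Pearson's r of log2(value + 0.1) among 7036 genes. These columns share 4 libraries and their depth, so r is a description. The genes near Cyp4a14 included Glrx (0.815), Dcc (0.809), Gsta2 (0.697) and Aldh1a1 (0.685). Cyp4b1 lay closest to Cyp2j13 (0.875), Inmt (0.871), Acy3 (0.866), Cndp1 (0.858) and Amacr (0.847), and its r with the tubule marker Slc34a1 was 0.809. For Cyp4a12a the 5 were Slco1a1 (0.730), Hsd17b11 (0.714), Kap (0.709), Cyp4b1 (0.703) and Cndp2 (0.70). Cyp4a10 lay closest to Slc5a10 (0.739), a sodium-coupled sugar transporter, and its list also held Cyp4a14 (0.661), with Gfra1 (0.698) and Nqo1 (0.640). Cyp4a12b had Glud1 (0.719), Msra (0.660), Slc13a3 (0.659), Fmo1 (0.658) and Mroh7 (0.657). Among the members, r was -0.563 between Cyp4a12a and Cyp4a14 and 0.203 between the near copies Cyp4a12a and Cyp4a12b. Over the 20 proximal tubule columns alone only 1 of the 25 places, 5 for each member, was kept, Dcc beside Cyp4a14.

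The PPARα targets of fatty acid oxidation, 28 listed genes chosen with results of these data known, are the programme that Cyp4a10 and Cyp4a14 belong to. In the double mutant against db/db 15 of the 17 genes above the floor were positive and 5 were past 1, with a median log2 ratio of 0.51, beside -0.07 for all genes above the floor. Of all 4057 genes above the floor 2.74% were past 1. The share of all genes with a positive ratio was not counted. Ehhadh, of peroxisomal β-oxidation, averaged 2.70 in the double mutant, 1.29 in Sco2KO/KI, 0.701 in db/db, against 0.538 in WT. Cd36, a fatty acid uptake protein, had the lowest ratio of the list in the double mutant against db/db, at 0.983 in the double mutant and 2.66 in db/db. The list had medians of 0.35 in Sco2KO/KI against WT (11 of 13 positive), 0.30 in db/db against WT (11 of 15 positive) and 0.53 in the double mutant against Sco2KO/KI (15 of 17 positive), where the medians of all genes were -0.06, 0.07 and 0.06.

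Ppara, the receptor itself, averaged 22.6 in the double mutant, 12.1 in Sco2KO/KI, 7.14 in db/db, against 8.97 in WT. Its log2 ratio was 1.56 for the double mutant over db/db, from 0.83 to 2.10 over the clusters, and -0.29 for db/db over WT. Cyp4a14 and Cyp4a10 were higher in db/db than in WT. Activity of the receptor was not measured, and its part in the Cyp4 ratios was not tested. Of the 12 receptors and coregulators listed, 7 passed the floor in each comparison, and among these only Ppara in the double mutant over db/db was past 1. The medians were 0.08 for Sco2KO/KI over WT, 0.23 for db/db over WT, -0.05 for the double mutant over db/db and 0.12 for the double mutant over Sco2KO/KI. Rxra, the partner of Ppara, was under the floor in all 4 libraries, at 0.367 in the double mutant, 0.201 in Sco2KO/KI, 0.310 in db/db, against 0.405 in WT.

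The androgen-regulated or male-biased kidney genes, 11 listed, are the group that Cyp4a12a and Cyp4b1 belong to by background. In db/db against WT 0 of 11 were positive and 9 were past -1, with a median log2 ratio of -1.52. Of all genes above the floor 3.46% were past -1 there, and their median was 0.07. The sources give no sex for the mice of any library, and its part in these ratios was not tested. Kap averaged 9.43 in the double mutant, 40.8 in Sco2KO/KI, 6.58 in db/db, against 43.3 in WT. Slc7a13, an S3 amino acid transporter, averaged 1.78 in the double mutant, 11.5 in Sco2KO/KI, 2.99 in db/db, against 12.4 in WT. Both were low in both db/db libraries, as Cyp4a12a was when counted alone. With its near copy Cyp4a12b added, the level was 0.317 in the double mutant and 0.501 in db/db, against 0.598 in WT. Cyp4b1 stood at 9.53 in the double mutant, nearer to WT than to db/db. Within the list Cyp2j13, an arachidonic acid epoxygenase, was like Cyp4b1 lower in db/db than in the other 3 libraries. Unlike Cyp4b1, it was not higher in Sco2KO/KI than in WT. It averaged 7.24 in the double mutant, 9.14 in Sco2KO/KI, 3.49 in db/db, against 11.3 in WT. Kap, Cyp2e1, Odc1 and Hsd17b11 were also lowest in db/db. Hsd17b11 averaged 0.754 in the double mutant, 1.22 in Sco2KO/KI, 0.419 in db/db, against 1.21 in WT. Slc7a13, Cyp7b1, Slco1a1, Slc22a30 and Acsm3 were lowest in the double mutant. In Sco2KO/KI against WT the median was -0.05 with 3 of 11 positive, and Cyp4a12a had 1.40. A link between the list and the Cyp4a12a ratio was not tested. The list medians were -0.19 in the double mutant against db/db and -0.85 in the double mutant against Sco2KO/KI.

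Signals that act on that programme were mixed. Bcl6, a transcriptional repressor with higher levels in male liver, averaged 1.19 in the double mutant, 2.53 in Sco2KO/KI, 0.902 in db/db, against 5.36 in WT, and Prlr, the prolactin receptor, 1.51, 0.288, 0.906 and 0.109. The medians of the 9 listed genes were 0.18 for Sco2KO/KI over WT, 0.17 for db/db over WT, -0.01 for the double mutant over db/db and -0.18 for the double mutant over Sco2KO/KI. Of 3 female-biased genes, Slc7a12, an amino acid transporter, and Prlr were past 1 in db/db over WT and Cyp2a4 was at -1.89. The means of Slc7a12 and Prlr were uneven over the proximal tubule-like clusters. The log2 ratio of Prlr ran from -0.51 to 4.13, and that of Slc7a12 was 0.11 in its lowest cluster, against a mean of 1.04.

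The enzymes that work beside the Cyp4 proteins differed less. Por, the reductase that supplies electrons to all microsomal P450 enzymes, averaged 3.81 in the double mutant, 4.39 in Sco2KO/KI, 4.24 in db/db, against 4.47 in WT. Of the 14 listed partners 8 or 9 passed the floor in a comparison, and among these only Adh1, an alcohol dehydrogenase, was past 1 either way, at 0.28 in db/db and 0.70 in WT, a log2 ratio of -1.06. Aldh1a1, an aldehyde dehydrogenase under the floor in all 4 libraries, had 0.375 in the double mutant, 0.0289 in Sco2KO/KI, 0.367 in db/db, against 0.0309 in WT, with log2 ratios of 1.67 for db/db over WT and 1.79 for the double mutant over Sco2KO/KI. The medians of the list were 0.10 for Sco2KO/KI over WT, -0.30 for db/db over WT, 0.32 for the double mutant over db/db and 0.01 for the double mutant over Sco2KO/KI. Among 11 other genes of arachidonic acid metabolism in the table, 3 of the 7 above the floor were past -1 in db/db against WT, all of the Cyp2j family. Of all genes above the floor 3.46% were past -1 there. The medians of this list were -0.21 for Sco2KO/KI over WT (0.19 with a floor of 1), -0.54 for db/db over WT, 0.41 for the double mutant over db/db and 0.02 for the double mutant over Sco2KO/KI. Of the 12 other Cyp4 genes in the table, Cyp4a31 and Cyp4f13 passed the floor, with a median of 0.45 for db/db over WT. Cyp4f13 averaged 0.615 in the double mutant, 0.519 in Sco2KO/KI, 0.553 in db/db, against 0.583 in WT.

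Mitochondrial, stress-related and segment genes also differed between the libraries. The 13 mitochondrially encoded genes summed to 177.6 UMIs per 10000 in the double mutant, 261.1 in Sco2KO/KI, 82.2 in db/db, against 140.5 in WT in the class. Their median log2 ratio was 1.06 in Sco2KO/KI against WT, -0.77 in db/db against WT, 1.05 in the double mutant against db/db and -0.64 in the double mutant against Sco2KO/KI. Its sign was that of Cyp4b1 in all 4 comparisons. These comparisons share libraries, and how many of all genes had the same signs was not counted. The 11 immediate early and heat shock genes summed to 1.02 in the double mutant, 1.76 in Sco2KO/KI, 0.714 in db/db, against 3.62 in WT, with medians of -0.99, -1.94, 1.15 and -0.31 over the 3, 3, 1 and 2 genes above the floor. Summed S3 markers averaged 10.7 in the double mutant, 30.1 in Sco2KO/KI, 14.96 in db/db, against 29.2 in WT, and S1 and S2 markers 27.9, 24.8, 14.1 and 24.8. All S3 markers but Slc5a10 are also in the list of androgen-regulated or male-biased genes, so that sum and that list are not separate observations. The part of these differences in the Cyp4 ratios was not tested. Rescaling the values without the mitochondrial genes left the Cyp4b1 ratio of db/db over WT at -2.45. These genes were 82.2 and 140.5 of 10000 UMIs in those libraries. The step could therefore hardly move any ratio, and it tests no link between them and Cyp4b1.

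The db allele and the Cyp4 genes lie on the same chromosome, so a linked segment of another strain around Lepr and the effect of the mutation cannot be told apart from genotype labels. Among 38 neighbours in the table within 1 Mb of the Cyp4 genes, 8 that are no Cyp4 gene passed the floor in db/db against WT. Their median log2 ratio was -0.37, from -0.56 for Trabd2b to 0.60 for Atpaf1, an assembly factor of ATP synthase, and 0 were past 1. In the double mutant against db/db 10 such neighbours had a median of 0.18, between -0.26 and 0.59.

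**Figure D5:**
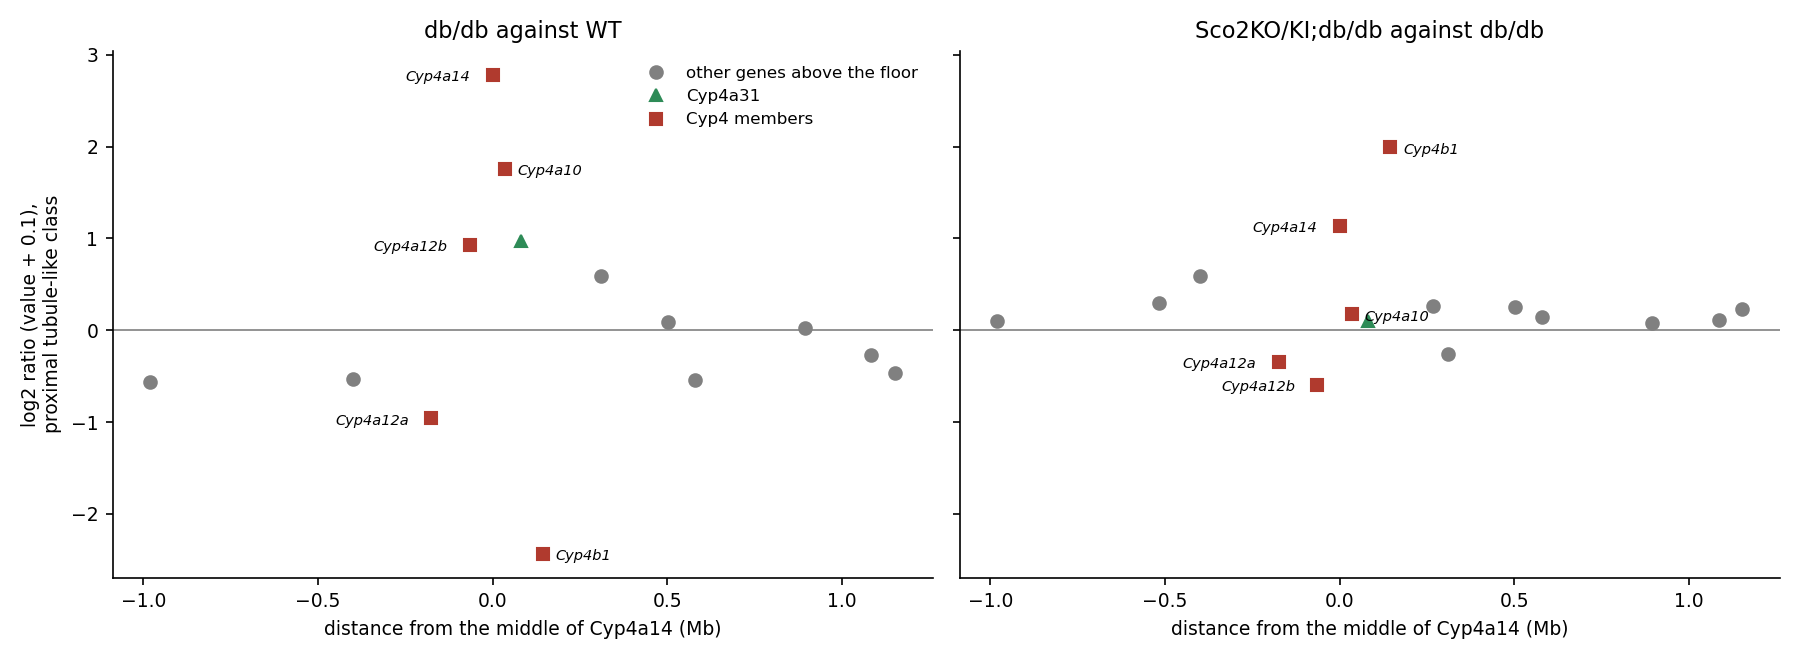
Class log2 ratio (value + 0.1) of the Cyp4 genes and of their neighbours above the floor, by distance in Mb from the middle of Cyp4a14, in db/db against WT and for Sco2KO/KI;db/db over db/db. In db/db against WT the members spread from -2.44 to 2.79, and the other neighbours lie between -0.56 and 0.60. The members were chosen with their ratios known and the neighbours by position, so the difference in spread is not a result.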

How the data were processed

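Kidneys were perfused, kept in RNAlater and turned into nuclei for droplet-based 10x libraries, per the labels' protocols. Cell Ranger and Seurat were used with mm10, per the submitters' processing notes. Their versions, the filters on nuclei, the handling of doublets and the clustering were not given in the sources used here. As deposited, the unit is a normalised signal: the authors' UMIs per 10000, averaged over a library's nuclei in a cluster, for 83 columns and 21481 entries. In 25 entries the gene name had become a date, and these were not used. All columns matched a library code in the titles. The table holds no cell barcodes, so barcodes shared between libraries could not be counted.

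Numbers of nuclei were recovered from values of single UMIs (10000 over such a value is a multiple of the number of nuclei, tolerance 1e-10) by a step chosen after seeing the data and tested on simulated data. At least 89.9% of the quotients were divisible by the chosen number. UMI totals are estimates from the same values. Clusters were named from marker genes where the leading set exceeded the next by 1.5 on the log2 scale with at least 3 markers up, limits set after the scores had been seen. The names may differ from those of the study, and clusters 6, 8, 10, 12 and 14 stayed unnamed.

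Ratios are log2((value + 0.1)/(value + 0.1)) per cluster, averaged unweighted over clusters 0, 1, 2, 3 and 7. Genes at 0.5 or more in at least 1 of the 2 class means were counted. With 1 library per genotype no test, p-value or error was computed, and nuclei were not used as replicates. The members and gene lists were chosen with earlier results of these data known. Named were all members, of each list the 3 highest and 3 lowest genes above the floor and genes of known direct role, the 5 genes most like each member, and neighbours within 1 Mb above the floor. Some genes that this rule names are not reported here. Names matched GENCODE vM21 for 21117 of 21456 genes. Coding sequences were aligned globally. Python 3.11.15, numpy 2.4.6, pandas 2.3.3 and matplotlib 3.10.9 were used.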

Additional observations from a re-analysis of the deposited data

Results flagged for a closer look

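The Sco2 ratio of Cyp4a12a had opposite signs in the 2 backgrounds: the log2 ratio was -0.34 for Sco2KO/KI;db/db over db/db, negative in 5 of 5 proximal tubule-like clusters, and 1.40 for Sco2KO/KI over WT, positive in 5 of 5. The difference of -1.75 could not be tested, since each genotype is 1 library, and both libraries of the first ratio were under the floor of 0.5.

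Its near copy Cyp4a12b also had opposite signs, at -0.60 for Sco2KO/KI;db/db over db/db and 0.26 for Sco2KO/KI over WT, a difference of -0.86 that was not tested. All 4 libraries were under the floor for this gene, and cluster 1 did not share the sign of the difference seen in the other 4 clusters.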

How the results depend on the processing

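Of 20 member ratios (5 members, 4 comparisons), 18 kept their sign under all 13 alternatives. The exceptions were Cyp4a10 in the double mutant against db/db (-0.02 to 0.40) and Cyp4a12b in the double mutant against Sco2KO/KI (-0.05 to 0.26). All 8 ratios past 1 kept their sign, and 4 stayed past 1. The others were under 1 only at a pseudocount of 1 for Cyp4a10 (0.83) and Cyp4a14 (0.75) in db/db against WT, at pseudocounts of 0.5 (0.95) and 1 (0.69) for Cyp4a12a in Sco2KO/KI against WT, and for Cyp4a14 in the double mutant against db/db at pseudocounts of 0.5 (0.93) and 1 (0.76) and in the cluster settings given above. The members' median in db/db against WT was 1.47, 0.389 and 0.229 at pseudocounts of 0.01, 0.5 and 1, against 0.933 at 0.1.

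Counts of genes past 1 moved most with the pseudocount, which sets how low genes weigh. In Sco2KO/KI against WT they were 56 higher and 79 lower at 0.01, 13 and 12 at 0.5, 12 and 8 at 1, and 23 and 31 with a floor of 1. In db/db against WT they were 29 and 52 at 0.5 and 11 and 21 at 1. In the double mutant against db/db 88 were lower at 0.01, 45 were higher and 11 lower at 0.5, and 27 and 4 at 1. In the double mutant against Sco2KO/KI 151 were higher at 0.01, 33 were higher and 28 lower at 0.5, 18 and 16 at 1, and 152 were higher with no floor.

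List medians moved with the floor, which changes the genes included. With no floor the PPARα targets had 0.204 in Sco2KO/KI against WT and 0.334 in the double mutant against db/db, and the omega-oxidation partners had 0.128 in the double mutant against db/db and -0.059 in db/db against WT. Also with no floor, db/db against WT gave 0.146 for the PPAR receptors, -0.197 for the arachidonic acid enzymes and -0.814 for the immediate early genes. With a floor of 1, the PPARα targets had 0.308 in Sco2KO/KI against WT and 0.144 in db/db against WT, the arachidonic acid enzymes 0.188 in Sco2KO/KI against WT, the PPAR receptors 0.209 in db/db against WT, the omega-oxidation partners 0.192 in the double mutant against db/db and the androgen-regulated genes -1.755 in the double mutant against Sco2KO/KI. Summing near copies and leaving out the highest cluster outside the tubule were chosen after seeing the data. No paired analysis was possible because each genotype has 1 library, and for the same reason no library could be left out. Depth limits Cyp4a12b in all libraries and Cyp4a14 in Sco2KO/KI and WT.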
